A study of Mus musculus with 4 samples.

Results

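The genes described here encode the secreted signals of the Wnt pathway, the receptors that receive them and the inhibitors that hold them back. They were chosen by symbol: every gene with a probe on the array whose name was Wnt, Fzd, Dkk, Sfrp or Rspo followed by a digit, or was Frzb, Wif1, Lrp5, Lrp6, Axin2, Nkd1, Nkd2 or Notum. This gave 47 genes, measured by 61 of the array's 41174 probes, out of 18350 genes with a symbol. They were 19 Wnt ligands, the 4 R-spondins, 10 Frizzled receptors, 11 secreted inhibitors and 3 inhibitors that act inside the cell. The co-receptors Lrp5 and Lrp6 had no named probe here.

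The study asked how rearing without visual input affects expression in tissue holding the thalamus and hypothalamus of 14-day-old mice. Dark-reared mice came from dams housed in a cage under a thick black cover from 1 to 4 days before birth, with care under dim red light. Control mice had a cycle of 12 hours of light and 12 hours of dark. No strain, sex or number of animals behind a sample was given. Each group had 2 samples called biological replicates, each on its own one-colour Agilent array, and the p-values below measure the spread between these samples. Dark-reared 2 and control 2 shared a slide, so their difference is given as the value within that slide.

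Wnt proteins are lipid-modified ligands that bind Frizzled receptors with the co-receptors Lrp5 and Lrp6. In the best known branch of the pathway this blocks the destruction of beta-catenin, which then acts with TCF/LEF factors on target genes such as Axin2, and R-spondins strengthen the signal by keeping Frizzled receptors on the cell surface. In the developing diencephalon Wnt signals take part in patterning, and Tcf7l2 and Lef1 remain expressed in thalamic neurons.

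Promoters are shown for the 3 genes that were at least 2-fold higher in control 1 than in any other sample (Wnt9b, Wnt3 and Fzd10), and for Fzd7, the receptor whose groups did not overlap. The windows run from 250 bases before to 50 bases after the start of transcription, 5′ to 3′ on the gene's strand, from RefSeq on GRCm38.p6. Wnt9b is at chr11:103749772-103750071 (minus strand), Wnt3 at chr11:103773925-103774224 (plus strand), Fzd10 at chr5:128600856-128601155 (plus strand) and Fzd7 at chr1:59481897-59482196 (plus strand). Capitals mark a word that TCF/LEF factors are known to prefer.
Wnt9b: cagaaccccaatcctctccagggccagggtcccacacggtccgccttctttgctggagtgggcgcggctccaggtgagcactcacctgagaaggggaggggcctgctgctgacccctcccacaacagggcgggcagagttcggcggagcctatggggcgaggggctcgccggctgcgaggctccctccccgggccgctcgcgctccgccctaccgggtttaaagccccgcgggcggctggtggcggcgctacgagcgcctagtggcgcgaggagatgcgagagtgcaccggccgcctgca
Wnt3: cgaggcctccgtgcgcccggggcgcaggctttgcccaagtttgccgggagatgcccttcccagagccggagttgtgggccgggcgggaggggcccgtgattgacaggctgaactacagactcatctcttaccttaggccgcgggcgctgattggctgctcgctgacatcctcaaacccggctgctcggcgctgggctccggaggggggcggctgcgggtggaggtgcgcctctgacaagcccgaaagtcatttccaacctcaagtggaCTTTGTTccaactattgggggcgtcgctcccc
Fzd10: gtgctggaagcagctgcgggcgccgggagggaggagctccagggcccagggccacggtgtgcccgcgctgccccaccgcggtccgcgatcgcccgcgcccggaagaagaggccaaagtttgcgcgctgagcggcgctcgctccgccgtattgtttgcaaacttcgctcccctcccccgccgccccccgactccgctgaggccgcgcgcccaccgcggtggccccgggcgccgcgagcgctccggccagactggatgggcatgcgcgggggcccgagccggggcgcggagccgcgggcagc
Fzd7: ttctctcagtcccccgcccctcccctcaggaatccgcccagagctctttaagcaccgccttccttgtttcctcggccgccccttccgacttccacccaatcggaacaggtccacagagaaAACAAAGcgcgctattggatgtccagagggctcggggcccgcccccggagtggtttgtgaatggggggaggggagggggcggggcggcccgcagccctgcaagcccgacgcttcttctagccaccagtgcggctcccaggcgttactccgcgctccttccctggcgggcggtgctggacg
Both strands were searched for the word CTTTGAA, for the word CTTTGAT, for the word CTTTGTA and for the word CTTTGTT. Wnt3 held the last of these words with its first base at position 19 after the start, and Fzd7 held its reverse complement from position -130. The windows of Wnt9b and Fzd10 held none of these words on either strand. Among 32 of the 47 genes with a window, 5 held a word (Wnt3, Wnt5b, Wnt11, Fzd7 and Dkk1), in 5 of 35 windows (14.3%) against 16.9% of all 32851 windows. The members' windows were richer in G and C, with a median of 66.7% against 52.7% over all windows, and held a median of 26 CG pairs against 7.

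Signals below are log2 values from which the array's own 75th percentile was subtracted, and levels of different genes are not comparable. A signal well above background was found for 37 of the 47 genes in either dark-reared sample and for 39 and 33 in control 1 and control 2. To be tested, a gene needed such a signal in both samples of at least 1 group, and 37 genes met this, 31 of them in all 4 samples. Of the other 6, Wnt6, Fzd7, Fzd8 and Wif1 passed through the dark-reared group and Wnt2b and Wnt9b through the controls. The ligands Wnt3a, Wnt5a, Wnt8a, Wnt8b and Wnt10b, the agonist Rspo3 and the inhibitors Dkk1 and Dkk4 were not well above background in any sample. Rspo4 was well above background in dark-reared 1 (-3.15) and control 1 (-2.94) and not in dark-reared 2 (-6.13) or control 2 (-6.04). Wnt16 was so in dark-reared 2 (-4.53) and control 1 (-4.38) alone.

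The samples also differed in ways that cut across rearing. Xist, an RNA of female cells, stood at 3.42 (dark-reared 1) and 3.79 (control 1) and was not well above background in the other two. Ddx3y, a Y-linked gene, lay at -0.32 in dark-reared 1 and at 1.07 and 1.18 in both second replicates, and only in control 1 was it not well above background. The labelled tissue was checked on markers: Slc17a6 and Tcf7l2 of thalamus and Resp18 of hypothalamus were well above background in all samples, while 6 of 17 hypothalamus genes with a probe, among them Sim1, Otp and Nr5a1, did not pass the filter. The 20 tested thalamus markers lay on average 1.00 above their 4-array mean in control 1 and 1.03 below it in dark-reared 1; the other two deviated by 0.46 (dark-reared 2) and -0.44 (control 2). The 14 tested choroid plexus markers had a mean deviation of -1.90 in control 2, where 13 of the 14 were lowest. Median group differences over the tested markers were -0.58 for thalamus, -0.33 for hypothalamus, 1.15 for choroid plexus, 0.19 for ependyma, 0.39 for cortex and hippocampus and -0.64 for oligodendrocytes. Of the 16 oligodendrocyte markers 14 were lowest in dark-reared 2 (mean deviation -1.06). Of the 17 cortex and hippocampus markers 4 were at least 2-fold higher in the dark without overlap, beside 0.429% of all genes. In that list 7 were lowest in control 1 and 7 in control 2. In bulk tissue fewer cells of a type and less RNA per cell cannot be told apart.

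Between mice reared in the dark and in the light, no gene of the set passed the test. In limma, with Benjamini-Hochberg adjustment over all 21423 genes tested, 0 of 37 members and 0 of all genes (0.0%) had an adjusted p under 0.05. Here and below, all genes include accessions without a symbol, each counted as a gene, so they outnumber the 18350 symbols. Before adjustment, 1 member (Rspo2) and 266 genes in all (1.24%) had a p under 0.05. Dark-reared means were higher for 25 members and lower for 12, with a median log2 difference of 0.07, against -0.01 over all genes tested. Under the planned normexp background correction, which fitted a background mean of -217 on control 2, the split was 9 higher and 28 lower. With outlying local backgrounds replaced in normexp it was 22 higher and 15 lower. The split also turned with single arrays left out, to 16 higher and 21 lower without control 2 and to 18 and 19 without dark-reared 2. Groups did not overlap for 8 members, 21.6% of the 37, beside 19.1% of all genes. The 4 that were lower were all ligands (Wnt1, Wnt2b, Wnt5b and Wnt7b), and the 4 that were higher were an agonist, a receptor and a pair of secreted inhibitors (Rspo2, Fzd7, Sfrp1 and Frzb). The shares of all genes were 9.57% lower and 9.53% higher, close to the members' 10.8% each way. Wnt2b and Fzd7 had passed the filter only through the group in which they were higher. With the filter on all 4 arrays, groups did not overlap for 6 of 31 members, beside 18.0% of all genes. For 33 of the 37 the group difference did not exceed both gaps between replicates, the exceptions being Wnt1, Wnt7b, Rspo2 and Fzd7, 4 of 37 members beside 2290 of 21423 genes in all, nearly the same share. For a single gene, 0.333 is the smallest p that an exact permutation test (two-sided) allows with these numbers.

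**Figure D1:**
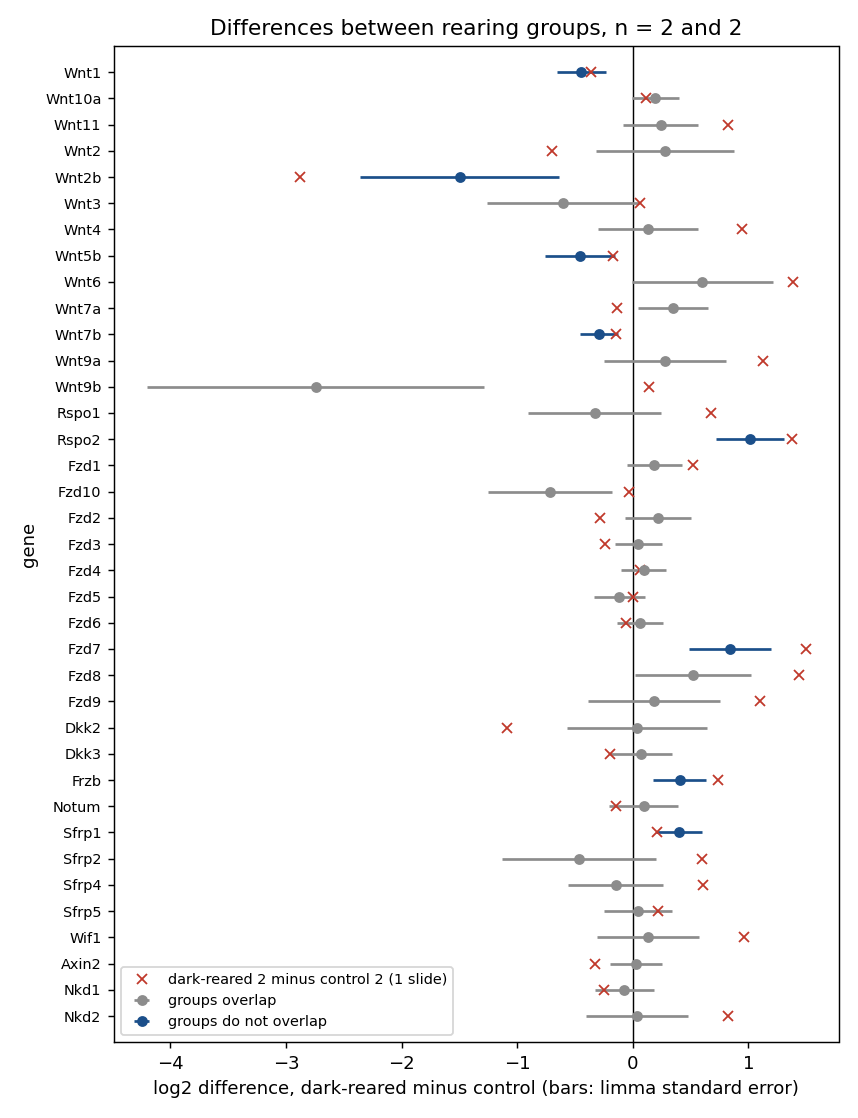
Log2 difference between dark-reared and control means for each of the 37 tested genes (circles, with the limma standard error as bar, n = 2 and 2), ordered by role, with the difference within the shared slide as crosses. The 8 blue genes are those whose groups did not overlap, and 14 of the 37 crosses lie on the other side of 0 from their circle.

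Among the ligands, 13 of 19 were tested, 7 with a higher and 6 with a lower dark-reared mean. The split was 2 higher and 11 lower under the planned normexp, and again 7 and 6 with outlying backgrounds replaced. It was 4 and 9 without dark-reared 2 or without control 2, and 6 and 7 without control 1. Wnt1, which patterns the midbrain and dorsal neural tube, had values of -3.30 and -2.91 in dark-reared 1 and 2 and of -2.77 and -2.55 in control 1 and 2. Both dark-reared samples were thus below both controls, with a difference of -0.44 (standard error 0.21, limma unadjusted p = 0.101, adjusted p = 1.00). The Wnt1 difference was -0.25 without dark-reared 1, -0.29 under normexp with outlying local backgrounds replaced and -0.70 on the deposited values (limma unadjusted p = 0.015). Wnt7b, a ligand made by neurons that acts on brain vessels, lay at -1.79 and -1.54 in the dark and at -1.35 and -1.40 in the light. Both controls were higher and close together, a difference of -0.29 (standard error 0.17, limma unadjusted p = 0.153) that was -0.17 without dark-reared 1 and -0.14 within the shared slide.

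Wnt5b, usually placed in the branches that do not use beta-catenin, had values of -2.64 and -1.91 against -1.89 and -1.74 in the same order. Dark-reared 2 stood only just below control 1, and without dark-reared 1 the difference went from -0.46 to -0.09. Wnt2b lay at -4.84 and -7.18 in dark-reared samples and at -4.72 and -4.30 in controls. Its difference of -1.50 rested on dark-reared 2, the only sample in which it was not well above background, and was -0.33 without it. Wnt2b was the only member at least 2-fold lower without overlap, as were 0.77% of all genes, and its difference was -0.49 under normexp with outlying local backgrounds replaced. The limma standard errors were 0.30 for Wnt5b and 0.86 for Wnt2b, with unadjusted p = 0.202 and 0.156.

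Wnt7a, the close relative of Wnt7b, was not lower: the dark-reared pair had -0.48 and -0.74, the controls -1.31 and -0.61. The groups overlapped, at a difference of 0.35 (standard error 0.30, limma unadjusted p = 0.313), and only control 1 stood apart, on the low side. Wnt2 had the same low sample, with -0.56 in control 1, 1.03 in control 2, and 0.70 and 0.33 in the dark-reared pair. Its difference of 0.28 (standard error 0.60, limma unadjusted p = 0.662) was -0.51 without control 1. Wnt6 stood high in dark-reared 2 (-3.17), with -4.84 in dark-reared 1 and with -4.65 and -4.56 in the controls, the second of them not well above background. Its difference of 0.60 (standard error 0.61, limma unadjusted p = 0.382) was -0.23 without dark-reared 2.

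Wnt9a lay at -1.88 and -1.57 in the dark-reared pair, inside the range of the controls (-1.31 and -2.70), and the difference of 0.28 (standard error 0.52, limma unadjusted p = 0.623) was -0.42 without control 2. Wnt11, a ligand of the branches without beta-catenin, had -3.08 and -2.51 in the dark and -2.74 and -3.34 in the light, a difference of 0.24 (standard error 0.33, limma unadjusted p = 0.503). Wnt4 and Wnt10a differed by 0.13 and 0.19, also with overlapping groups.

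**Figure D2:**
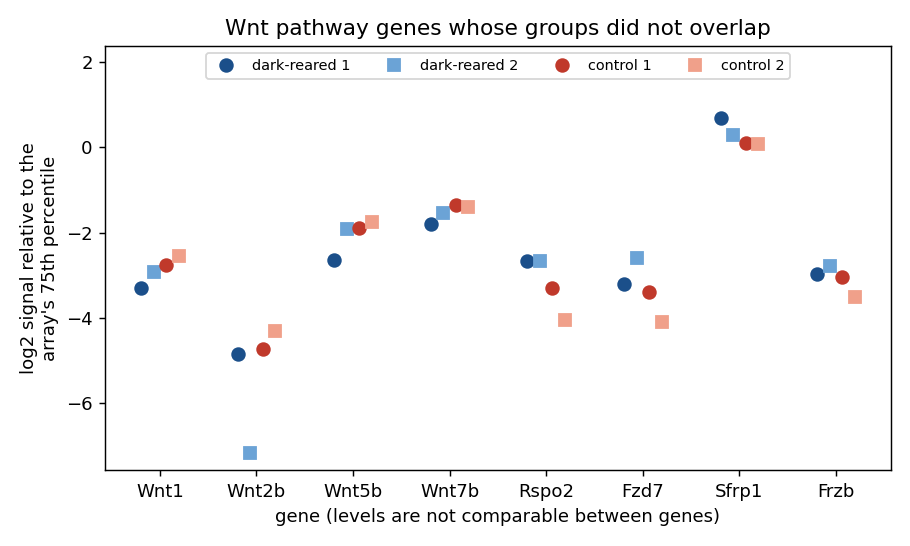
Log2 signal of the 8 tested genes whose groups did not overlap, one symbol per array (blue, dark-reared; red, control; circles, replicate 1; squares, replicate 2). The gap between groups is narrow for Wnt5b (-1.91 against -1.89), and the low point of Wnt2b, -7.18 in dark-reared 2, was not well above background.

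Wnt9b, Wnt3 and Fzd10 shared a high value in control 1. Wnt9b stood there at -0.66, with -3.44 in control 2, -3.30 in dark-reared 2 and -6.29 in dark-reared 1, and was not well above background in dark-reared 1. Its range of 5.63 was the widest of the 37. The groups overlapped, and the mean difference of -2.74 (standard error 1.46, limma unadjusted p = 0.134) was -1.35 without control 1 and 0.14 within the shared slide. Wnt3 lay at 0.20 in control 1, at -1.56 in control 2, and at -1.07 and -1.49 in the dark-reared pair. Its second probe gave -0.94 in control 1 against -2.92 in control 2 and -2.42 and -2.73 in the dark. The receptor Fzd10 had 0.30 in control 1, -1.16 in control 2, and -1.10 and -1.19 in the dark-reared pair. Control 1 was again alone, and the second probe gave it -1.08 against -2.27 in control 2 and -2.35 and -2.54 in the dark. Without control 1 the difference turned from -0.61 to 0.28 for Wnt3 (standard error 0.66, limma unadjusted p = 0.41 with it) and from -0.72 to 0.011 for Fzd10 (0.54 and 0.253).

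These were the 3 members highest in control 1 by at least 2-fold over the next sample, 8.11% of the 37, beside 0.373% of all genes tested. They were singled out after their values were seen, and Wnt9b had passed the filter only through the controls, where it was high. Of the thalamus markers, 14 of 20 were highest in control 1, and their summed level (the sum of signals relative to the array's 75th percentile) was 106.9 there and lower in control 2 (38.2), dark-reared 2 (84.9) and dark-reared 1 (30.6). Wnt9b was lowest in dark-reared 1 (-6.29, not well above background), as were 12 of the 20 markers. The list did not share the flat level of Wnt3 and Fzd10 in the other samples, and 5 of 20 were highest in dark-reared 2. Slc17a6 had 3.43 there, 3.89 in control 1 and 1.64 in control 2, and was lowest in dark-reared 1. Of the list's single genes, Ramp3 (3.34 in control 1, 0.94 to 1.06 in the rest) and Tnnt1 (1.01, and -1.53 to -1.26 in the rest), named after their values were seen, were high in control 1 alone. The part of thalamus content in the Wnt9b, Wnt3 and Fzd10 values was not tested.

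Wnt9b and Wnt3 are neighbours in the genome, with no other protein-coding gene between them in the RefSeq table. The set held 4 such neighbouring pairs. In the pair Wnt6 and Wnt10a the highest sample differed, dark-reared 2 for Wnt6 and dark-reared 1 for Wnt10a (-1.53). Of the pairs Wnt3a with Wnt9a and Wnt10b with Wnt1, the first-named genes were not well above background in any sample.

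Of the R-spondins only Rspo1 and Rspo2 were tested. Rspo2, which strengthens Wnt signals at the receptor, had -2.66 in each dark-reared sample, with control 1 at -3.31 and control 2 at -4.04. Both samples from the dark were higher, at a difference of 1.01 (standard error 0.29, a 2.02-fold ratio), and Rspo2 was the only member that was at least 2-fold higher without overlap, as were 0.429% of all genes. The difference did not pass in limma (unadjusted p = 0.0269, adjusted p = 1.00), and 0.789% of all genes had a lower p. It was 0.65 without control 2, 1.38 without control 1, -0.26 under the planned normexp, and 0.41 under normexp with outlying local backgrounds replaced. Rspo3 was not well above background in any sample, and no difference is given for it.

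Rspo1 showed another order, lowest in dark-reared 1 (-0.13) and then, upwards, at 0.67 in control 2, 1.21 in control 1 and 1.35 in dark-reared 2. The groups overlapped, at a difference of -0.33 (standard error 0.58, limma unadjusted p = 0.598) that was 0.41 without dark-reared 1 and 0.68 within the shared slide.

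All 10 Frizzled receptors on the array were tested, 8 with a higher and 2 with a lower dark-reared mean. The split was 5 and 5 under the planned normexp, without control 2 and within the shared slide, and 4 and 6 without dark-reared 1. With outlying backgrounds replaced in normexp it was again 8 and 2. Fzd7 had -3.20 and -2.60 in the dark and -3.38 and -4.10 in the light, and was not well above background in control 2. Both samples from the dark were higher, at a difference of 0.84 (standard error 0.36, limma unadjusted p = 0.0794). The Fzd7 difference was 0.48 without control 2, -0.30 under the planned normexp and 0.43 with outlying backgrounds replaced. Fzd8 was likewise low in control 2 (-4.93, not well above background), with -3.74 in control 1 and with -4.14 and -3.49 in the dark-reared pair. Its groups overlapped, and the difference of 0.52 (standard error 0.50, limma unadjusted p = 0.359) was -0.076 without control 2. Fzd9 ran from -0.59 in dark-reared 1 to 0.95 in dark-reared 2, with both controls between.

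The groups overlapped for each of the remaining receptors. Fzd3, which guides axons and sets planar polarity, had 0.69 and 0.48 in the dark and 0.36 and 0.72 in the light, a difference of 0.05 (standard error 0.20, limma unadjusted p = 0.822). The dark-reared pair lay inside the controls' range, and 2 of its 3 tested probes had that sign. Fzd4, the receptor for Norrin in brain and retinal vessels, lay between -0.47 and -0.11 in all samples. Fzd2 had 0.87 and 0.29 in the dark and 0.15 and 0.57 in the light, overlapping groups with a difference of 0.22 (standard error 0.29, limma unadjusted p = 0.494). Fzd1 and Fzd6 differed by 0.19 and 0.06 with overlapping groups. Fzd5 differed by -0.12, and its second probe, not well above background in dark-reared 2, by -0.55. The Fzd5 difference ran from -0.76 to -0.06 over scalings and background corrections, and was -0.09 under normexp with outlying backgrounds replaced.

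Of the secreted inhibitors, 9 of 11 were tested, 7 with a higher and 2 with a lower dark-reared mean (2 higher and 7 lower under the planned normexp, 5 and 4 without dark-reared 2, without control 2 or with outlying backgrounds replaced). Sfrp1 and Frzb carry a Frizzled-like domain that binds Wnt ligands. Sfrp1 had 0.69 and 0.29 in the dark against 0.10 and 0.08 in the light. The controls lay close together and both dark-reared samples above them, at a difference of 0.40 (standard error 0.20, limma unadjusted p = 0.116), which was 0.20 without dark-reared 1. Frzb had -2.96 and -2.78 against -3.04 and -3.52, with dark-reared 1 just above control 1, a difference of 0.41 (standard error 0.23, limma unadjusted p = 0.151). The Frzb difference was 0.17 without control 2, -0.31 under the planned normexp and 0.18 with outlying backgrounds replaced.

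Their relative Sfrp2 was low in dark-reared 1 (-2.04) and higher in control 2 (-0.83), control 1 (-0.51) and dark-reared 2 (-0.24). Its difference of -0.47 (standard error 0.66, limma unadjusted p = 0.522) turned to 0.43 without dark-reared 1. Wif1, which binds Wnt ligands directly, had -4.23 and -3.50 in the dark and -3.53 and -4.46 in the light, and was not well above background in control 2. Dkk3, a divergent member of the Dickkopf family, lay at 1.08 and 0.44 against 0.75 and 0.64. Notum, an enzyme that removes the lipid from Wnt proteins, had -2.99 and -3.70 against -3.33 and -3.55. The groups overlapped for Wif1, Dkk3 and Notum, with differences of 0.13, 0.07 and 0.09 (standard errors 0.44, 0.27 and 0.30) and limma unadjusted p = 0.78, 0.813 and 0.767. Dkk2, Sfrp4 and Sfrp5 differed by -0.15 to 0.04.

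The inhibitors inside the cell, which the pathway itself induces in many tissues, had differences from -0.07 to 0.04. Axin2, a scaffold of the complex that destroys beta-catenin, had -1.99 and -2.31 in the dark and -2.37 and -1.99 in the light. The groups had nearly the same range, at a difference of 0.03 (standard error 0.23, limma unadjusted p = 0.905). Nkd1, which binds Dishevelled, had 1.00 and 0.43 against 0.90 and 0.68, a difference of -0.07 (standard error 0.26, limma unadjusted p = 0.791), and its second probe was of the other sign. Nkd2 differed by 0.04.

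**Figure D3:**
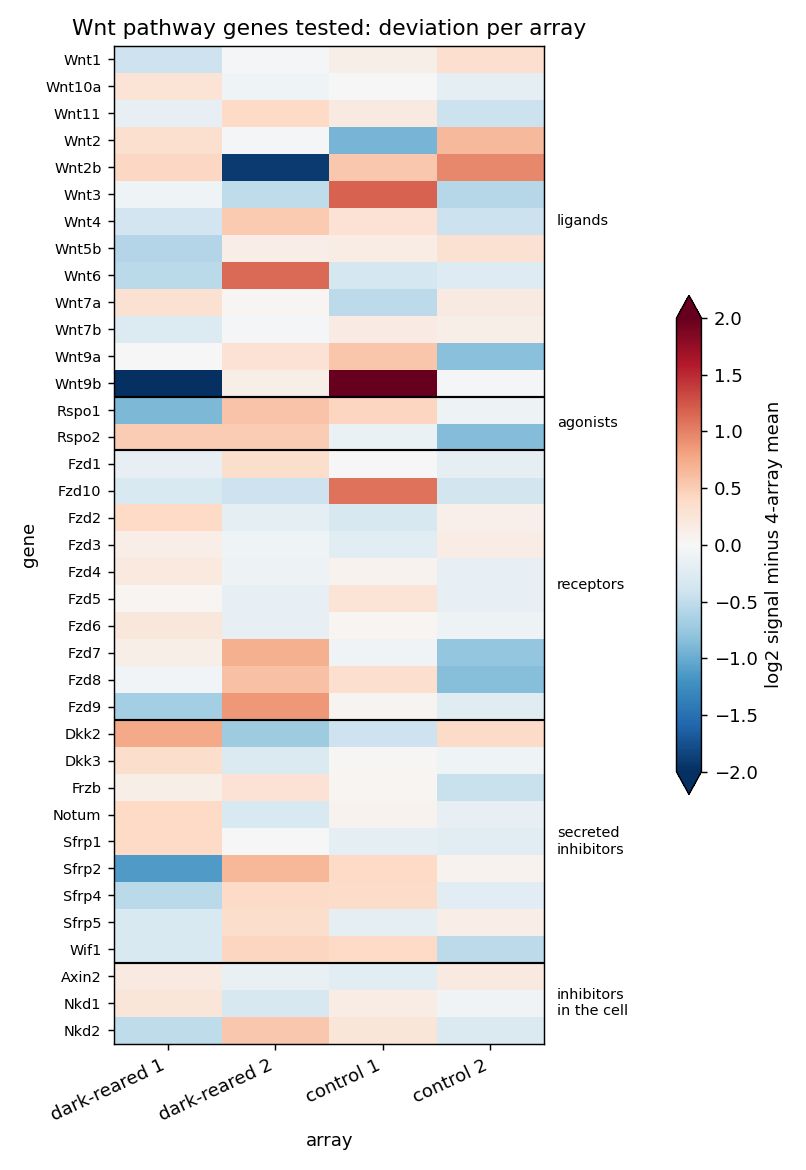
Log2 signal of the 37 tested genes in each array as the deviation from the gene's 4-array mean, by role (red, above; blue, below; the colour scale ends at 2 on either side). Wnt3, Wnt9b and Fzd10 are high in control 1, Sfrp2 and Rspo1 are low in dark-reared 1, and Fzd7 and Fzd8 are low in control 2.

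Single arrays thus took the ends of the range unevenly. Control 2 held the lowest value of 13 members (35.1%, beside 17.5% of all genes) and dark-reared 1 that of 11 (29.7%, beside 28.4%). Dark-reared 2 held the highest value of 14 (37.8%, beside 28.9%). Fzd7, Fzd8 and Wif1, lowest in control 2, had passed the filter only through the dark-reared group. With Wnt6, which had passed likewise, they were highest in dark-reared 2. Wnt9b, lowest in dark-reared 1, had passed only through the controls. These shares were not taken for members well above background in all samples. The median gap between replicates over the members was 0.57 in dark-reared and 0.42 in control samples, both wider than the median absolute group difference of 0.24. Over all genes these were 0.26, 0.21 and 0.11.

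Beside the members low in control 2 (Rspo2, Fzd7, Fzd8 and Wif1 among them), the choroid plexus list was low there: its summed level was 15.2 there, 58.8 in the other control and 31.5 to 61.3 in the dark-reared pair, and Ttr lay at -1.77 in control 2 against 1.58 to 2.65 in the rest. Of the 14 ependyma markers tested, 12 were also lowest in control 2. Detection was weakest on that array, with 65.9% of probes well above background, beside 70.6% to 73.3% on the others. The lowest signal well above background, before scaling, was a log2 value of 5.13 in control 2 and 4.41 to 4.54 in the rest. Fzd7, Fzd8 and Wif1 were not well above background there. Rspo1, Fzd9 and Sfrp2 were lowest in dark-reared 1 and highest in dark-reared 2. Several lists were low in dark-reared 1: 12 of 20 thalamus markers, 8 of 14 meninges markers and 6 of 11 hypothalamus markers were lowest there, with mean deviations of -1.03, -0.38 and -0.66. Of these lists, meninges had most of its markers (11 of 14) highest in dark-reared 2, with a summed level of 82.4 there against 25.7 in dark-reared 1 and 32.8 and 38.4 in the controls. The hypothalamus sum was 4.94 in dark-reared 1 and 12.1 to 18.5 in the rest. The part of these tissues, or of the weaker detection in control 2, in the members' values was not tested.

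**Figure D4:**
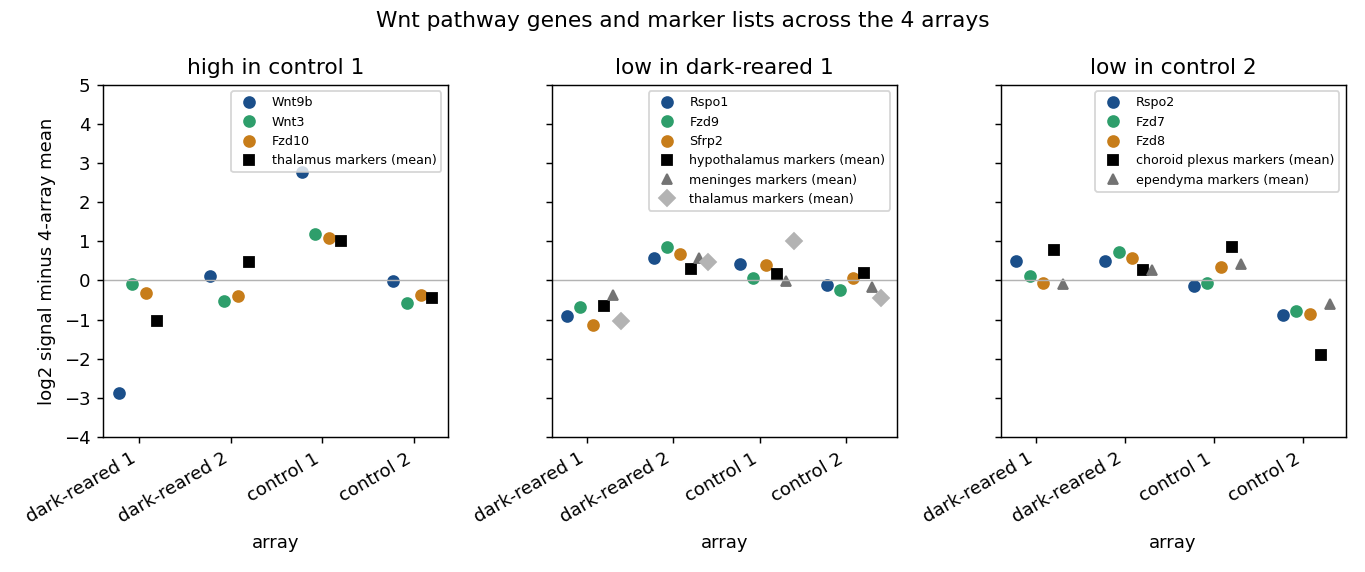
Deviation from the 4-array mean (log2) of 9 genes in each array (coloured circles), with the mean deviations of marker lists as black or grey squares, triangles and diamonds. Thalamus markers and Wnt9b, Wnt3 and Fzd10 are highest in control 1; hypothalamus, meninges and thalamus markers and Rspo1, Fzd9 and Sfrp2 are lowest in dark-reared 1; and choroid plexus and ependyma markers and Rspo2, Fzd7 and Fzd8 are lowest in control 2.

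The other genes of the pathway were read from 4 lists, and none passed the adjusted test in any of them, nor had an unadjusted p under 0.05. Of 22 tested genes for Wnt secretion and receptor partners, 10 were higher and 12 lower, with a median of -0.02. Groups did not overlap for 2 of these, both lower, beside 9.57% of all genes lower. The largest difference there was that of Sostdc1, a secreted inhibitor, at 1.03; it had -1.69 in control 2, 0.95 in control 1, and 0.78 and 0.53 in the dark-reared pair, so that the groups overlapped. Of 32 genes of the cytoplasmic and nuclear steps, 20 were higher and 12 lower, with a median of 0.03. Groups did not overlap for 8 of them, 7 higher and 1 lower, beside 9.53% of all genes higher and 9.57% lower. The largest of the 7 was that of Dact1, which binds Dishevelled, at 0.63 (standard error 0.27), and the lower one was the Dishevelled gene Dvl3, at -0.61 (standard error 0.40). Tcf7l2 and Lef1, the thalamic transcription factors of the pathway, were highest in control 1, at 2.93 and 0.15, and differed by -0.60 and -0.33 with overlapping groups. Among 10 tested target genes, 4 were higher and 6 lower, the median was -0.27, and the groups overlapped for all 10. The lowest sample was dark-reared 1 for 7 of these 10. Calb2, Cacna1g, Gbx2 and Rora are also on the thalamus list, where 12 of 20 markers were lowest in dark-reared 1. Calb2 and Cacna1g differed by -0.99 and -0.62. Of 13 planar polarity genes, 7 were higher and 6 lower (median 0.04). Among them 3 did not overlap between groups, Invs, Celsr1 and Celsr2, higher in the dark by 0.67, 0.37 and 0.15. Of all genes 9.53% were higher without overlap.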

How the data were processed

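Total RNA from 4 samples was measured on one-colour Agilent arrays, 2 dark-reared and 2 control by the labels. Spot intensities were made by the authors in Feature Extraction, Agilent's software; the file headers give version 10.7.3.1 and the submitters' processing notes 10.7. The deposited processed signal is an intensity corrected for background within 1 array and not scaled across them. Log2 values, deposited by the authors with a median of 6.84 on each array, had no normalization given in the sources used here and served as an alternative.

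Control spots and outlier spots (79 to 103 per array) were left out, spots of a probe averaged, and the array's 75th percentile (764 to 794) subtracted on the log2 scale. RefSeq accessions gave symbols through a GRCm38.p6 table to 26918 of 41174 probes. For the other probes each accession was counted as a gene, so a gene may be counted more than once. Probes well above background in both samples of a group were kept, and the brightest stood for its gene. No probe was saturated, and from 65.9% (control 2) to 73.3% (control 1) of probes were well above background per array. The group comparison used limma (version 3.58.1, R version 4.3.3; two-sided, threshold 0.05) over all genes. The number of arrays limits the precision. On simulated data for this comparison, 33 of 100 genes changed by a log2 value of 2 and 88 of 100 changed by 4 were recovered among 21423 genes. Of the unchanged genes 3 were called. The simulated spread was that fitted over all genes. Median replicate gaps were wider for the members (0.57 and 0.42) than for all genes (0.26 and 0.21), so these rates do not hold for the members.

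The members and gene lists were chosen with earlier results of these data known. Full values are given for the 20 members with the largest differences, those without overlap and a fixed list (Axin2, Nkd1, Notum, Lrp5, Lrp6, Wif1, Frzb, Sfrp1, Sfrp2, Dkk3, Wnt7a, Wnt7b, Fzd3 and Rspo2) and other members by range. Alternatives were median or quantile scaling, normexp background correction (offset 50, on median spot signals, since mean ones were not used here), the same with outlying local backgrounds replaced, the deposited values, other filters, outlier spots kept, a trended robust eBayes, the mean of probes, a block for replicate number, the shared slide alone and each array left out. Of the marker lists, those for habenula, meninges, vessels, astrocytes, microglia and neurons had medians of 0.27, 0.15, 0.01, 0.02, 0.11 and -0.01.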

Additional observations from a re-analysis of the deposited data

How the results depend on the processing

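The adjusted test called 0 genes, and 0 members, under every alternative that gives a test. Members that were at least 2-fold apart without overlap numbered 2 (Rspo2 and Wnt2b). They numbered 1 under quantile normalization, normexp with outlying backgrounds replaced, the deposited values and the filter on all 4 arrays. Leaving out 1 array, with the lone sample taken to vary like the other group, raised the count. The share of all genes was not taken for those counts. Groups without overlap numbered 8. With 1 array left out non-overlap is easier to reach, and counts of 18 to 27 members stood beside 49.4% to 65.5% of all genes. The median over members was 0.07, -0.30 under the planned normexp, and -0.03 to 0.13 with 1 array left out. That normexp had a fitted background mean of -217 on control 2, against -2.02 to 6.28 on the others, and shifted the all-gene median from -0.01 to -0.11; with outlying local backgrounds replaced the fitted mean was -0.74 and the members' median 0.08. Labels give both groups the replicate numbers 1 and 2 without saying that a number marks a shared litter or day, and deviations of equal numbers correlated at -0.16 across genes. With the replicate number as a block in limma 0 genes passed, 271 had an unadjusted p under 0.05, and 1 of them was a member. With crossed numbers, a choice made after the data were seen, 0 passed. There 433 genes had such a p, and 3 of them were members. Over 16 alternatives the 26 named members gave 410 values, 363 with the sign of the main difference and 47 without. Opposite signs were found under normexp, Wnt11 (-0.45), Wnt6 (-0.46), Wnt9a (-0.12), Rspo2 (-0.26), Fzd7 (-0.30), Fzd8 (-0.49), Frzb (-0.31), Notum (-0.61), Wif1 (-0.76), Axin2 (-0.29); with outlying backgrounds replaced in normexp, Notum (-0.036), Axin2 (-0.029); within the shared slide, Wnt2 (-0.70), Wnt3 (0.065), Wnt7a (-0.14), Wnt9b (0.14), Rspo1 (0.68), Fzd2 (-0.28), Fzd3 (-0.24), Dkk3 (-0.20), Notum (-0.15), Sfrp2 (0.60), Axin2 (-0.32); with the mean of probes, Nkd1 (0.058). With each array left out the differences ran from -0.063 to 0.54 for Wnt11, -0.51 to 1.08 for Wnt2, -1.49 to 0.28 for Wnt3, -0.23 to 1.43 for Wnt6, -0.0029 to 0.70 for Wnt7a, -0.42 to 0.97 for Wnt9a, -1.07 to 0.41 for Rspo1, -1.45 to 0.011 for Fzd10, -0.071 to 0.51 for Fzd2, -0.13 to 0.23 for Fzd3, -0.076 to 1.11 for Fzd8, -0.25 to 0.39 for Dkk3, -0.26 to 0.45 for Notum, -1.37 to 0.43 for Sfrp2, -0.33 to 0.60 for Wif1, -0.16 to 0.22 for Axin2, -0.36 to 0.21 for Nkd1. The sign held under all alternatives that gave a value for 5 of the 26: Wnt1, Wnt2b, Wnt5b, Wnt7b and Sfrp1. Each of these 5 had groups without overlap, so leaving out an array or taking the shared slide alone could not turn its sign. The trended eBayes and the block for replicate number leave every difference as it was. Part of the 363 equal signs was thus fixed in advance. Whether low signal kept members from being called was not tested.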
